A study of Mus musculus with 2 samples.

Results

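Oxidative phosphorylation is carried out by 5 protein complexes of the mitochondrial inner membrane, and the genes described here are the nuclear genes for their subunits. They were taken as all genes whose symbol starts with Nduf, Uqcr or Atp5, is Sdha, Sdhb, Sdhc or Sdhd, or starts with Cox followed by a number between 4 and 8, on probe sets that carry 1 gene symbol only. This gave 90 genes on 179 probe sets, out of 18194 genes and 45101 probe sets on the array. Of the 90 genes, 82 encode subunits, and 8 are Ndufaf genes, whose products help to build complex I without staying in it. By complex, the 82 comprised 34 genes of complex I, 4 of complex II, 8 of complex III, 19 of complex IV and 17 of complex V. Ndufa4 and Ndufa4l2 were counted with complex IV, to which the Ndufa4 protein belongs in spite of its name.

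The cells were thioglycolate-elicited peritoneal macrophages, cells that gather in the peritoneal cavity after an injection of an irritant broth. They came from wild type male C57BL6 mice of 8 weeks and were grown in culture to 80% confluence. The CSF1 cells then received 100 ng/ml CSF1, the growth factor of macrophages that acts through the receptor Csf1r, for 12 h, and the control cells were kept without it. RNA of 1 CSF1 sample and 1 control sample was put on the Affymetrix Mouse Genome 430 2.0 array, 1 array each, so the groups have no replicates and no test between them could be run. The labels do not say how many animals were used or whether the CSF1 and control cells shared animals. The question is how far the subunit genes differed between the 2 arrays, and whether the 5 complexes differed from each other in this.

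Complex I (NADH dehydrogenase) and complex II (succinate dehydrogenase, which is also an enzyme of the citric acid cycle) pass electrons to ubiquinone. Complex III hands them on to cytochrome c, and complex IV (cytochrome c oxidase) hands them to oxygen. Complexes I, III and IV pump protons, and complex V (ATP synthase) lets the protons flow back and makes ATP. Some subunits of complexes I, III, IV and V are encoded by mitochondrial DNA, and the nuclear genes supply the rest. In macrophages the balance between this pathway and glycolysis differs between activation states, and succinate dehydrogenase is known for its part in inflammatory signalling.

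To show the regulatory sequence in front of subunit genes with higher and with lower ratios that hold motifs, 5 promoters follow, from 250 bases before the transcription start to 30 bases after it, read 5′ to 3′ on the gene's strand from RefSeq, build GRCm38.p6. Capitals mark matches to the motifs of factors known to act on respiratory chain genes. These are GCGCA and GCGC with any 1 base between them for nuclear respiratory factor NRF1, CCGGAAG for ETS factors such as GABP, and AAGATGGCG for YY1, each searched on both strands, where the reverse of the ETS motif reads CTTCCGG. Ndufs8 had the highest ratio of all subunit genes and Sdhb the third lowest. Atp5j has 2 of the motifs, Sdha 3 NRF1 matches, and Cox6b1 had the lowest ratio in complex IV.
Ndufs8: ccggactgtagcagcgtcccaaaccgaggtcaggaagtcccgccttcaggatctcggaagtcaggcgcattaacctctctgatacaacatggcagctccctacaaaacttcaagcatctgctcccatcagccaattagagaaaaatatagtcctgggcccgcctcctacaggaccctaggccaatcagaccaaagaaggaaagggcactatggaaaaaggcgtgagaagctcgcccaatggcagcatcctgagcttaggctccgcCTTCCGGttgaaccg
Atp5j: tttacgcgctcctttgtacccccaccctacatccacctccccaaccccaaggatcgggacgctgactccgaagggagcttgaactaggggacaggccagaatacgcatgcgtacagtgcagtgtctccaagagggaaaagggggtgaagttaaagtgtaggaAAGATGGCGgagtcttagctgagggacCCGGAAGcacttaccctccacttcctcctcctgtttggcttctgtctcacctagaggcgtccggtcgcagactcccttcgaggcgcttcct
Cox6b1: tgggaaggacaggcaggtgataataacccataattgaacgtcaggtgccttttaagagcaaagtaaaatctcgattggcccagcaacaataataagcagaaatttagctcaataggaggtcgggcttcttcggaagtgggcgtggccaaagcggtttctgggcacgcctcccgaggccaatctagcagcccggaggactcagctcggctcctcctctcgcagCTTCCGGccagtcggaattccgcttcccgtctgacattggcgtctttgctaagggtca
Sdha: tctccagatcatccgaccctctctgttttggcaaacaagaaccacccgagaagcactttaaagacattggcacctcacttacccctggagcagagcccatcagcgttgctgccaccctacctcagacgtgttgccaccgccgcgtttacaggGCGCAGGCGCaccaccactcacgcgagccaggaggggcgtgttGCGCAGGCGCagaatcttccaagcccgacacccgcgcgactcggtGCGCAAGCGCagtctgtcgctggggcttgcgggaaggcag
Sdhb: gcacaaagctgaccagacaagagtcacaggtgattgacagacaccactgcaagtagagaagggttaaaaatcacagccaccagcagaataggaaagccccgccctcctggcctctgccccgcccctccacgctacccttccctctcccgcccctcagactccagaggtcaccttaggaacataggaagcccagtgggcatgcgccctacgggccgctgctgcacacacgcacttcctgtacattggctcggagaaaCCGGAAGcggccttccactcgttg
The promoters lie at chr19:3912745-3913024 on the minus strand for Ndufs8, chr16:84834947-84835226 on the minus strand for Atp5j, chr7:30626085-30626364 on the minus strand for Cox6b1, chr13:74350211-74350490 on the minus strand for Sdha, and chr4:140961021-140961300 on the plus strand for Sdhb. Each window covers the gene's start and upstream flank. The 3 NRF1 matches of Sdha begin 98, 55 and 10 bases before the start site. In Atp5j the YY1 match begins 88 bases and the ETS match 61 bases before it. Another promoter listed for Atp5j holds none of these motifs.

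Promoter sequences were found for 67 of the 82 subunit genes, as 72 promoters of 300 bases. An NRF1 match was present in 16 of the 72, or 22.2%, against 10.3% of the promoters of all measured genes and 4.60% of all promoters. ETS matches were present in 23.6%, against 17.6% and 8.86%, and YY1 matches in 8.33%, against 2.98% and 1.40%. The motif TCAAGGTCA of the estrogen-related receptors was present in 2 subunit promoters, those of Atp5g3 and Sdhd. That is 2.78%, against 0.29% of the promoters of all measured genes and 0.42% of all promoters. The 14 measured subunit genes with an NRF1 match had a median log2 ratio of -0.04, against 0.07 for the 48 without one. For ETS the medians were 0.01 over 17 genes with a match and 0.03 over 45 without. The 6 genes with a YY1 match, which are Atp5j, Atp5j2, Ndufa9, Ndufc1, Ndufs4 and Ndufs7, had a median of 0.18, against 0.02 for the other 56. A match is a run of letters only, and these medians describe 2 arrays.

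Each gene is read from the probe set that was brightest on average over both arrays, in the arbitrary units of the deposited table. Differences are log2 ratios, CSF1 over control, so that positive values are higher with CSF1. A background level of 158 units was taken from genes of unrelated tissues, and lower values were raised to it. Genes above it on at least 1 array, 10533 in all, are called measured. The median signal over all probe sets was 91.6 units on the CSF1 array and 101 units on the control array. The log2 ratio of the 18 hybridisation spike probe sets averaged -0.29 ± 0.13 (SD between them). Gapdh had a 3′ to 5′ signal ratio of 1.40 on the CSF1 array and 1.03 on the control array. For Actb this ratio was nearly equal, at 1.38 on the CSF1 array and 1.35 on the control array. All 10 macrophage markers were above background on both arrays, with 9 of them below 0 and a median of -0.24. Among them Cd68, Lyz2, Mpeg1, Csf1r, Cd14 and Msr1 had a mean log2 level of 14 or more. Of all measured genes in that bright range, 10.9% were above 0, with a median of -0.18. The summed signal of the 10 macrophage markers was 159115 units on the CSF1 array and 190015 units on the control array. The markers in the bright range weigh most in this sum. Of 11 fibroblast and mesothelial markers, 9 were measured and all 9 were above 0, with a median of 0.30 and a summed signal of 65519.6 units on the CSF1 array and 51710.1 units on the control array. T and NK cell markers summed to 2014 units on the CSF1 array and 3631 units on the control array, with 8 of 10 on the array and 6 measured. The sums include Cd3e and Ncr1, which were below background. Gzma had 472 units with CSF1 and 1554 units in control, and Zap70 had 175 and 535 units. Klrd1 had a log2 ratio of -0.82, while Cd3d, Cd3g and Cd2 had 0.35, -0.04 and -0.04, so the markers did not share 1 direction. Of the B cell markers 3 of 8 were measured, of the neutrophil markers 2 of 8, of the eosinophil and mast cell markers 3 of 8, and no erythroid marker was. In bulk RNA, fewer cells of a type and less RNA per cell cannot be told apart. Neither was separated from the lower ratios of bright genes in general, and the part of these markers in the results below was not tested.

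Subunit genes of all 5 complexes were strongly expressed on both arrays and nearly level between them. Of the 82 genes, 75 were measured, 74 of them above background on both arrays, and 71 had a mean signal of at least 2000 units. Their median log2 ratio was 0.02, or 1.01-fold, with 43 above 0 and 32 below. Over all measured genes the median was 0.00, 50.4% were above 0 and 49.6% below. No subunit gene was 2-fold higher or lower, against 1.39% of all measured genes, and none was 1.5-fold higher or lower, against 5.31% and 4.8%. A difference of at least 1.2-fold was found for 8 subunit genes upward and 1 downward, against 20.5% of all measured genes upward and 19.4% downward.

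Most subunit genes are bright, so the bright genes are the closer background. Among the 2423 genes with a mean signal of at least 2000 units, a limit chosen after the values were seen, 12% passed 1.2-fold upward and 12.1% downward. The 71 subunit genes above this limit had 8 higher and 1 lower. Of the 2423 genes, 40 were at least 1.5-fold higher and 40 lower, while 2 were at least 2-fold higher and 7 lower. With shares this small, the absence of such differences among 71 subunit genes is close to the bright background. Log2 ratios within 0.1 of 0 were found for 37 of the 75 measured subunit genes and for 25.9% of all measured genes. The share within 0.1 was not taken among bright genes alone.

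**Figure D1:**
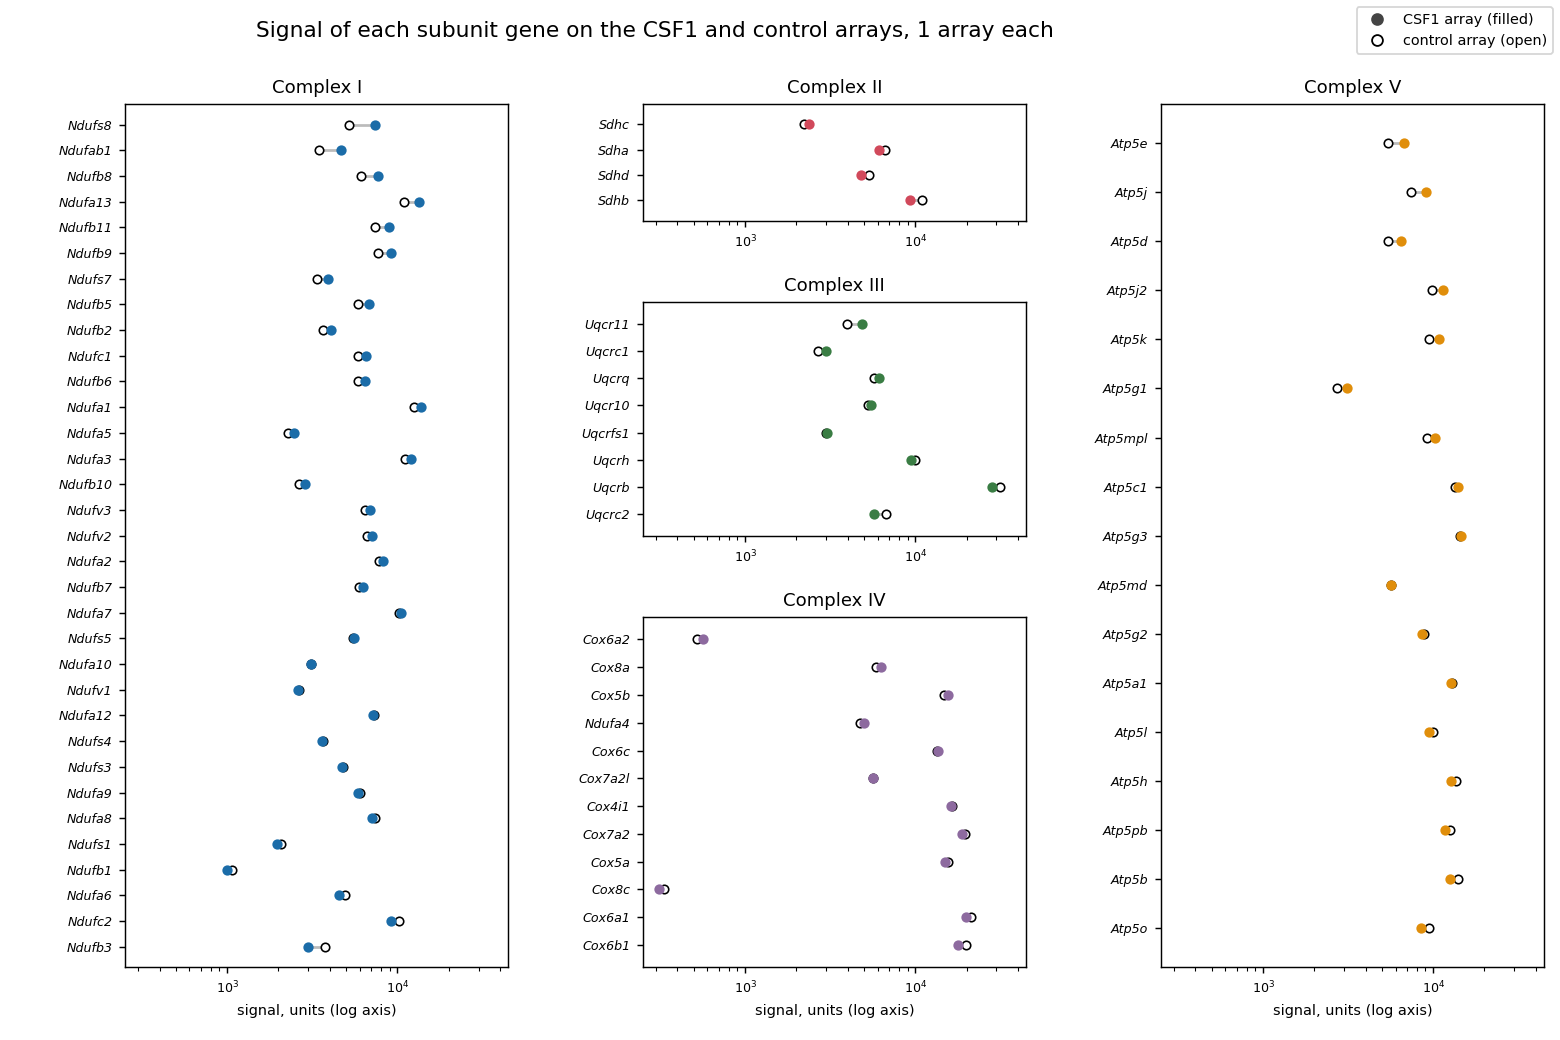
Signal of the 74 subunit genes above background on both arrays, in arbitrary units on a log axis, with the CSF1 array as filled and the control array as open points, sorted within each complex by log2 ratio. The points of most genes lie close together, with the widest gaps upward for Ndufs8 (7368 units with CSF1, 5168 units in control) and downward for Ndufb3 (2993 and 3750.2 units).

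Complex I held the largest ratios in both directions, and it has the most genes of the complexes. Of its 34 genes 33 were measured, 22 above 0 and 11 below, with a median of 0.08, 5 past 1.2-fold upward and 1 downward. Among all measured genes 20.5% passed 1.2-fold upward and 19.4% downward. Among those of at least 2000 units the shares were 12% and 12.1%. These shares also stand beside the counts of the other complexes below. Ndufb4 was not above background on its only probe set with 1 gene symbol, and Ndufs6 and Ndufa11, which share their probe sets with other genes, were not analysed here.

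Core subunits of the matrix arm carry the flavin and the iron-sulfur clusters, and 6 of them were measured. Ndufs8, a core subunit that holds iron-sulfur clusters near the ubiquinone site, had 7368 units on the CSF1 array and 5168 units on the control array, 1.43-fold higher. All 6 of its probe sets were above 0, with log2 ratios between 0.03 and 0.79 and a mean of 0.50 ± 0.26 (SD between probe sets). Of these, 5 lay between 1.41-fold and 1.73-fold higher than control. The dimmest, at 768 units with CSF1 and 752 units in control, was close to level. Ndufs7, which carries the last iron-sulfur cluster before ubiquinone, had 3918 units with CSF1 and 3387 units in control, 1.16-fold higher. Over its 2 probe sets the log2 ratio averaged 0.11 ± 0.14, so the difference is smaller than their spread.

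Ndufv2, an iron-sulfur subunit of the NADH-oxidising tip, had 7064 units with CSF1 and 6668 units in control. Its brightest probe set gave 0.08 and the other two gave 0.22 and 0.55, all above 0. The remaining core subunits were near level. Ndufv1, which binds NADH and the flavin, had 2604 units with CSF1 and 2626 units in control. Ndufs3 had 4710.4 units with CSF1 and 4812 units in control, and Ndufs1, the largest subunit of the complex, had 1969 units with CSF1 and 2081 units in control. The core subunits as a group therefore split evenly, with 3 above 0 and 3 below and a median of 0.04.

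Accessory subunits of the membrane arm were above 0 in 14 of 18 cases, with a median of 0.12. Ndufb8 had 7690.2 units with CSF1 and 6083 units in control, 1.26-fold higher on the single probe set that exceeded background. Ndufa13, also known as GRIM-19, had 13402 units with CSF1 and 10896 units in control, 1.23-fold higher. Ndufb11, an X-linked subunit, had 8956 units with CSF1 and 7402 units in control, and over 3 probe sets its log2 ratio averaged 0.18 ± 0.08. For Ndufb11 the difference was thus larger than the spread between probe sets.

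In 2 other members of the same arm, Ndufb5 and Ndufb2, the differences recurred across probe sets. Over 2 probe sets each, the log2 ratio averaged 0.18 ± 0.04 for Ndufb5 and 0.17 ± 0.02 for Ndufb2. Ndufb9 was 1.19-fold higher on its brightest probe set, with 9128 units under CSF1 and 7663 units in control. Its other probe set above background was near level at 0.02, and the mean was 0.14 ± 0.17 over 2 probe sets. Ndufb3 went the other way. It had 2993 units with CSF1 and 3750.2 units in control, 1.25-fold lower on its only probe set, and was the lowest of all measured subunit genes. Ndufc2 was lower on its brightest probe set, with 9231 units under CSF1 and 10187 units in control, but its 3 probe sets averaged -0.02 ± 0.12. The remaining genes of the arm lay closer to 0. Ndufc1, Ndufb6, Ndufa1, Ndufa3, Ndufb10 and Ndufb7 had log2 ratios between 0.07 and 0.15. Of these, Ndufa3 averaged -0.02 ± 0.18 over 2 probe sets of opposite sign. Ndufs5 and Ndufa10 were both at 0.01, and Ndufa8 and Ndufb1 were at -0.05 and -0.10.

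Accessory subunits of the matrix arm divided equally, with 4 of 8 above 0 and a median of 0.01, and none reached 1.2-fold on its brightest probe set. Ndufa5 had the highest ratio of these, with 2483 units under CSF1 and 2270.1 units in control. Its other probe set, not marked as shared, had 2033 units with CSF1 and 1462 units in control, 1.39-fold higher. Over both probe sets the log2 ratio of Ndufa5 averaged 0.30 ± 0.25. Ndufa6 had the lowest ratio of the 8, with 4521 units under CSF1 and 4903 units in control. Ndufs4, whose loss in mice causes a Leigh-like brain disease, had 3611 units with CSF1 and 3670.1 units in control. The other genes of this arm, Ndufv3, Ndufa2, Ndufa7, Ndufa12 and Ndufa9, had log2 ratios between -0.05 and 0.11. Ndufa7 averaged -0.10 ± 0.18 over 5 probe sets, 2 of them above 0. Ndufab1, the mitochondrial acyl carrier protein, which is a subunit of complex I and also serves fatty acid synthesis, had 4644 units with CSF1 and 3461 units in control. That was 1.34-fold higher, but on its other probe set above background, not marked as shared, the log2 ratio was -0.04.

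**Figure D2:**
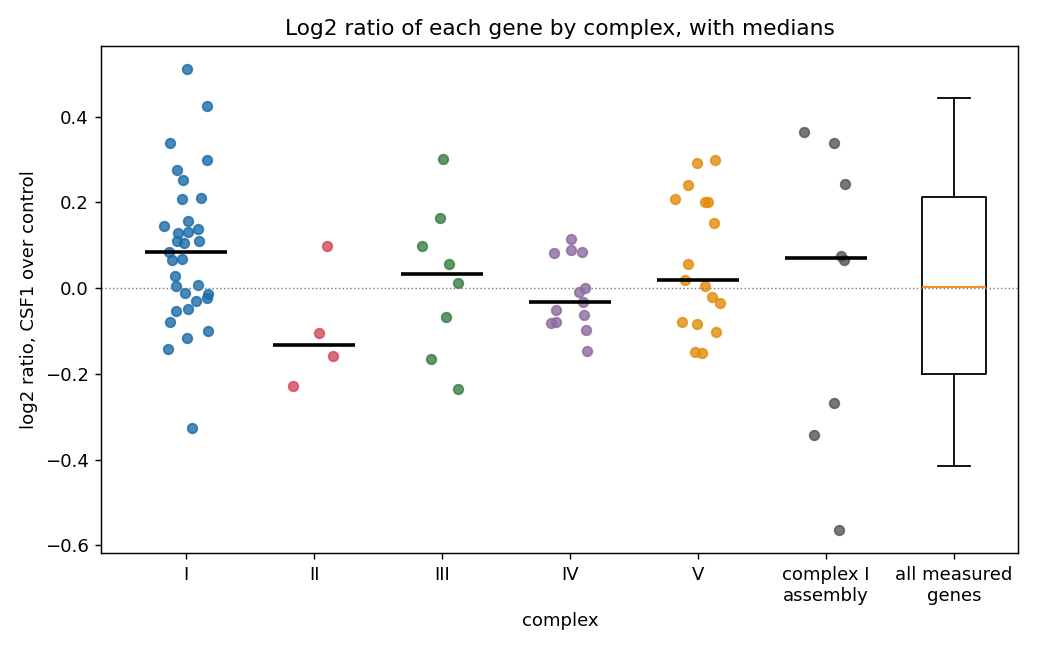
Log2 ratio, CSF1 over control, for each measured gene (points) of complexes I to V and of the complex I assembly factors, with the median of each as a bar, beside a box plot of all 10533 measured genes (median, quartiles, 10th and 90th percentiles). The medians run between -0.13 in complex II and 0.08 in complex I, and the points of the complexes overlap.

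Complex II had the lowest median of the 5 complexes, by small amounts. Its 4 genes had a median of -0.13, with 3 below 0 and none past 1.2-fold. Sdhb, the iron-sulfur subunit, had 9288 units with CSF1 and 10885 units in control, 1.17-fold lower on its only probe set. Sdha, the flavoprotein that oxidises succinate, had 6147 units with CSF1 and 6614 units in control, 1.08-fold lower. Its second probe set above background, marked as shared, gave 3053 units with CSF1 and 4501 units in control, 1.47-fold lower.

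The membrane anchors of complex II did not share a direction. Sdhd had 4778 units with CSF1 and 5327 units in control, 1.12-fold lower, and -0.04 ± 0.17 over 2 probe sets. Sdhc had 2384 units with CSF1 and 2225 units in control, 1.07-fold higher, and 0.31 ± 0.30 over 2 probe sets. Of the 7 probe sets of complex II above background on both arrays, 3 were above 0.

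Complex III was level as a group and its members differed. Of 8 genes, 5 were above 0, with a median of 0.03 and 1 past 1.2-fold. Uqcr11, a small accessory subunit, had 4883 units with CSF1 and 3960 units in control, 1.23-fold higher on its only probe set. The core proteins Uqcrc1 and Uqcrc2 form a pair of large matrix-facing subunits, and their ratios had opposite signs. Uqcrc1 had 3002 units with CSF1 and 2681 units in control, 1.12-fold higher on 1 probe set. Uqcrc2 had 5726 units with CSF1 and 6735 units in control, 1.18-fold lower, and both probe sets were alike at -0.22 ± 0.02.

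Uqcrfs1, the Rieske iron-sulfur protein that takes electrons from ubiquinol, was level, with 3028 units under CSF1 and 3002 units in control. Uqcrb, an accessory subunit near the ubiquinone site, had 28247 units with CSF1 and 31672 units in control. Its other probe set had the opposite sign, and the mean was -0.01 ± 0.21. The other accessory subunits Uqcrq, Uqcr10 and Uqcrh had log2 ratios of 0.10, 0.06 and -0.07. Uqcr10 averaged 0.10 ± 0.21 over 3 probe sets and Uqcrh 0.07 ± 0.19 over 2, each with mixed signs.

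Complex IV showed the narrowest range. Its 13 measured genes lay between -0.15 and 0.11, with a median of -0.03, 5 above 0 and 8 below, and none past 1.2-fold. Cox4i1, the ubiquitous form of the subunit that binds ATP as a regulator, had 16168 units with CSF1 and 16534 units in control. Cox5a had 14911 units with CSF1 and 15570 units in control, and Cox5b, which binds zinc, had 15573 units with CSF1 and 14687 units in control. Cox5b was above 0 on 4 of 5 probe sets, with a mean of 0.09 ± 0.10.

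Cox6b1, a subunit on the side facing cytochrome c, had 17873 units with CSF1 and 19796 units in control, 1.11-fold lower, and -0.07 ± 0.11 over 2 probe sets. Cox6a1 had 19931 units with CSF1 and 21333 units in control, and Cox7a2 had 18905 units with CSF1 and 19592 units in control, below 0 on both probe sets. Cox8a was the most uniform, with a mean of 0.10 ± 0.01 over 2 probe sets. Ndufa4 had 4997 units with CSF1 and 4724 units in control. Cox6c was level at 13504 units with CSF1 and 13502 units in control, as was Cox7a2l, a factor that joins complexes III and IV into supercomplexes, at 5624 units with CSF1 and 5656 units in control.

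Tissue-restricted forms of complex IV subunits were mostly absent from both arrays. Cox4i2 and Ndufa4l2, forms that low oxygen induces in other cells, were not above background, at 47.3 and 79.2 units with CSF1 and 95.2 and 73.0 units in control. The muscle forms Cox7a1 and Cox8b were not above background on either array, at 94.2 and 16.4 units with CSF1 and 113 and 32.6 units in control. The same held for the further paralogues Cox6b2 and Cox7b2, at 135 and 11.1 units with CSF1 and 49.7 and 11.2 units in control. Cox6a2, the heart and skeletal muscle form, was above it with 567 units under CSF1 and 524 units in control. Cox8c, described in testis, had 313 units with CSF1 and 331 units in control. Cox7c was above background on the control array alone, with 84.9 units under CSF1 and 168 units in control, which gives at least 1.06-fold lower. Both of its probe sets with 1 gene symbol are dim, so these arrays give no usable level for this widely expressed subunit gene.

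Complex V was level as a group, and its genes lay between -0.15 and 0.30. All 17 genes were measured, 10 above 0 and 7 below, with a median of 0.02, 2 past 1.2-fold upward and none downward. The F1 head makes ATP, and its catalytic beta subunit gene Atp5b had 12514 units with CSF1 and 13883 units in control, 1.11-fold lower. Atp5a1, the alpha subunit, had 12661 units with CSF1 and 12967 units in control, and Atp5c1, the gamma shaft, had 13965 units with CSF1 and 13420.4 units in control. The delta and epsilon subunits, small proteins of the central stalk, had the highest ratios of the F1 group. Atp5e, the epsilon subunit, had 6706 units with CSF1 and 5446 units in control, 1.23-fold higher on its only probe set. Atp5d, the delta subunit, had 6446 units with CSF1 and 5451 units in control, 1.18-fold higher, and 0.13 ± 0.16 over 2 probe sets.

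The peripheral stalk holds the head in place, and 3 of its 4 genes were below 0 on the brightest probe set. The exception, Atp5j, whose promoter is printed above, encodes a coupling factor of the stalk and had 9106 units with CSF1 and 7434 units in control, 1.23-fold higher. Atp5o, the subunit that confers oligomycin sensitivity, had 8453 units with CSF1 and 9392 units in control, 1.11-fold lower, but 0.06 ± 0.30 over 2 probe sets. Atp5pb and Atp5h had log2 ratios of -0.10 and -0.08. Over 2 probe sets each, of mixed sign, they averaged -0.04 ± 0.09 and 0.02 ± 0.14. The direction of these 3 genes thus depends on the probe set. Among the membrane subunits that shape ATP synthase dimers, 4 of 5 were above 0. Atp5j2 was the most uniform of these, with 11382 units under CSF1, 9853 units in control and a mean of 0.22 ± 0.02 over 2 probe sets. Atp5k was 1.15-fold higher and Atp5mpl 1.11-fold higher, while Atp5md and Atp5l had log2 ratios of 0.01 and -0.08.

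The c-ring, through which protons pass, is encoded by 3 genes for the same mature protein. Atp5g1 had 3125 units with CSF1 and 2719 units in control, 1.15-fold higher. Atp5g2 and Atp5g3 were level, with 8639 and 14606 units under CSF1 and 8769 and 14418 units in control. Comparing the 3 by level is not possible across probe sets.

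Assembly factors of complex I, found by the same symbol rule, had ratios between -0.56 and 0.37. All 8 were measured, 2 past 1.2-fold upward and 3 downward, against 20.5% and 19.4% of all measured genes. Their median signal was 576 units, and for all genes with a mean log2 level between 9 and 9.5 the 10th and 90th percentiles of the ratio were -0.44 and 0.45. Ndufaf2, a chaperone of late complex I assembly, had 445 units with CSF1 and 659 units in control, 1.48-fold lower, and Ndufaf1, which acts on the membrane arm, had 545 units with CSF1 and 690.4 units in control, 1.27-fold lower. Ndufaf8 had 2145 units with CSF1 and 1664 units in control, 1.29-fold higher, and 0.50 ± 0.19 over 2 probe sets. Ndufaf6 was 1.26-fold higher, but with the 95th percentile as background its log2 ratio was 0.15, short of 1.2-fold. Ndufaf3 was 1.18-fold higher. Ndufaf4 was at -0.27 on its brightest probe set, but its 2 probe sets disagreed in sign, with a mean of 0.16 ± 0.61. Ndufaf5 and Ndufaf7 were both at 0.07.

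Probe sets of the same gene, read on the same 2 arrays, show how far the probes disagree, and this SD holds no variation between samples or hybridisations. Of the subunit genes, 40 had several probe sets above background on both arrays, with a pooled SD of 0.18 between the log2 ratios of a gene. All probe sets shared a sign in 18 genes, 14 of them above 0 and 4 below, and the signs were mixed in 22. The 4 genes with all probe sets below 0 were Sdha, Uqcrc2, Cox7a2 and Atp5a1. Among genes above background on both arrays, 18 had a ratio larger than this SD, 15 higher and 3 lower, the last being Ndufb3, Uqcrc2 and Sdhb. A ratio of this size was found in 56.1% of all measured genes and in 41.7% of those with a mean signal of at least 2000 units. Of the 75 measured subunit genes, 39 were read from probe sets whose names mark them as matching several transcripts, of the same gene or of others.

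**Figure D3:**
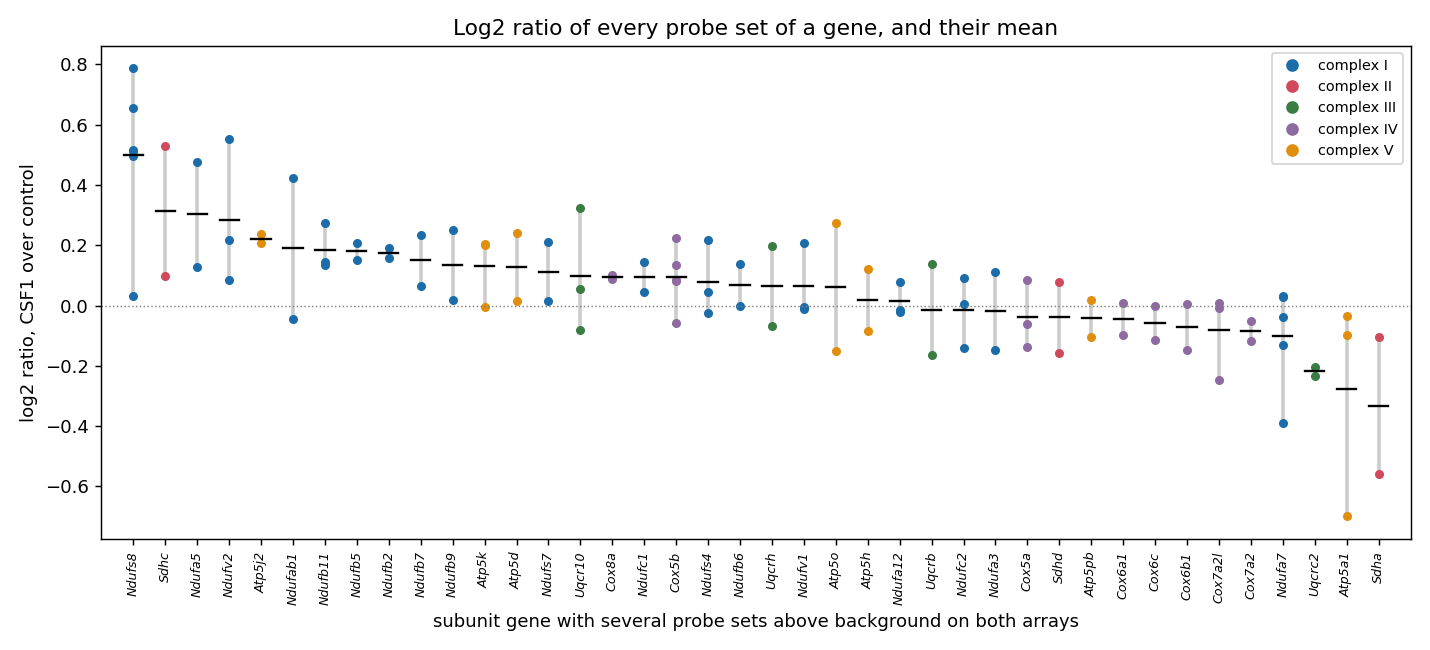
Log2 ratio of CSF1 over control for every probe set above background on both arrays (points), for the 40 subunit genes with several such probe sets, with the gene's mean as a bar, coloured by complex. Ndufs8 stands highest with all 6 probe sets above 0, Sdha lowest with both below, and 22 genes have probe sets on both sides of 0.

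At the bright end of the arrays log2 ratios were lower, for all genes and for the subunits. Of all measured genes with a mean log2 level of 14 or more (16384 units), 10.9% were above 0, with a median of -0.18. The 4 subunit genes in this range, Uqcrb, Cox6a1, Cox6b1 and Cox7a2, were all below 0, with a median of -0.12. Between 8192 and 16384 units, 25 subunit genes had a median of 0.00 against -0.04 for all genes there. Between 4096 and 8192 units, 28 had a median of 0.07 against 0.01, and between 2048 and 4096 units 13 had one of 0.11 against 0.03. Across the 74 subunit genes above background on both arrays, the correlation of ratio and mean level was -0.10 by Pearson's r and -0.19 by Spearman's rho, over points that share both arrays. The 13 genes of complex V at 8192 units or more had a median of -0.02 and the 4 below that level one of 0.22. In complex IV the medians were -0.05 over 7 genes and 0.04 over 6.

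**Figure D4:**
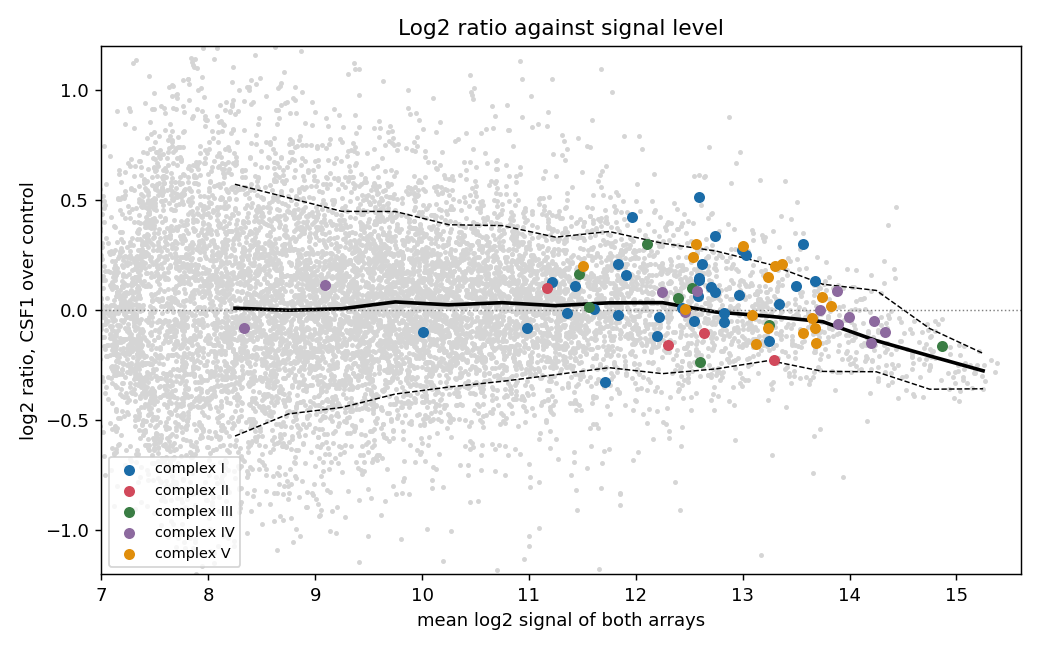
Log2 ratio of CSF1 over control against the mean log2 signal of both arrays, for all measured genes (grey) and subunit genes above background on both arrays (coloured by complex), with the median of all genes (solid line) and the 10th and 90th percentiles (dashed lines) in bins of 0.5. The median of all genes drops to -0.28 in the brightest bin, and most subunit genes lie between the dashed lines.

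A loess correction of the ratio on the level moved complexes IV and V upward. Their medians became 0.06 and 0.10 once the median over the measured genes was taken off, against -0.03 and 0.02 as deposited, while complex I was at 0.09 and complex II at -0.14. Quantile normalization gave 0.05 for complex IV and 0.10 for complex V. The sign of the complex IV median thus depends on the scaling. Complex I had the highest median in 8 of the 12 settings compared, the reported one included. The rest of these 8 were centrings, background rules, assignment by symbol and the limit of 2000 units. They leave the ratios of most subunit genes unchanged relative to one another, so the count is no measure of stability. Complex V was highest under quantile normalization and loess, complex III on probe sets not marked as shared, and complex II under the mean of all probe sets. On probe sets not marked as shared, which left 53 subunit genes, the median of complex I was 0.01, as were those of complexes IV and V, and that of complex III was 0.20. Complex II lay lowest in 11 settings, and the exception was the mean of all probe sets, at 0.13, which takes in a probe set of Sdha at 49.8 units with CSF1 and 11.1 units in control. The medians of the complexes lay at most 0.21 apart as deposited, and no test of the difference between complexes could be made.

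**Figure D5:**
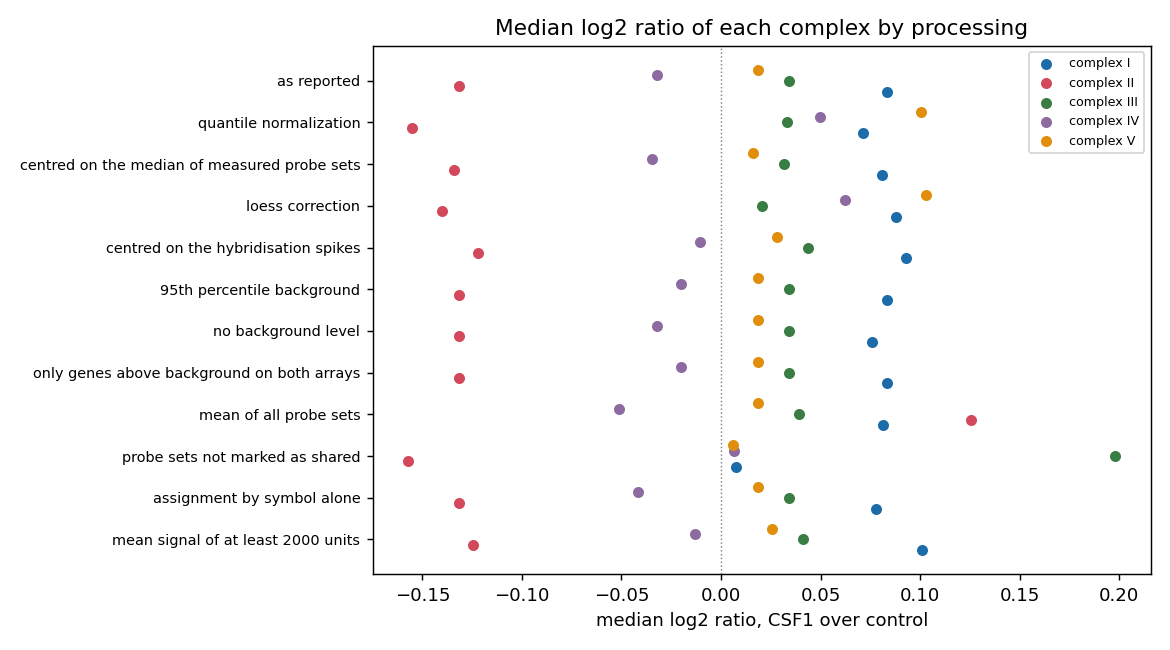
Median log2 ratio of CSF1 over control in each complex (points) as reported and under 11 alternative settings, where values under another scaling or among genes of at least 2000 units are relative to the median of all genes compared. Complex II lies left of 0 in all but the mean of all probe sets, and complexes IV and V move to the right under quantile normalization and the loess correction.

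Further genes of the respiratory chain and its surroundings, outside the symbol rule, had medians between -0.02 and 0.09 by group. They include Cyc1, a catalytic subunit of complex III that the symbol rule leaves out, so the 8 genes of complex III above lack it. Of 23 genes for electron carriers and coenzyme Q synthesis, 20 were measured, with a median of 0.06 and 12 above 0. Past 1.2-fold were 2 upward and 3 downward, against 20.5% and 19.4% of all measured genes. Cycs, which encodes cytochrome c, had 13380.2 units with CSF1 and 12605 units in control, and Cyc1, the cytochrome c1 of complex III, had 4766 units with CSF1 and 4778 units in control. Coq6, a hydroxylase of coenzyme Q synthesis, was below background in control and at least 1.63-fold higher. Pdss2, which makes the tail of coenzyme Q, was 1.38-fold lower, and Etfb, a subunit of the electron transfer flavoprotein that feeds electrons of fatty acid oxidation into the chain, 1.37-fold lower.

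Further assembly factors, 38 of 42 measured, had a median of 0.09, with 27 above 0. Past 1.2-fold were 7 upward and 2 downward, against 20.5% and 19.4% of all measured genes. Sco2, a copper chaperone of complex IV, had 966.5 units with CSF1 and 453 units in control, 2.14-fold higher. Its relative Sco1 was 1.72-fold higher, with 347 units under CSF1 and 202 units in control. Each of these was read from 1 probe set above background on both arrays. Uqcc1, a complex III assembly factor, was 2.02-fold higher on its brightest probe set, but its 2 probe sets had an SD of 0.97. Cox15, an enzyme of heme A synthesis, was 1.61-fold lower, with 424 units under CSF1 and 683 units in control and an SD of 0.60 between 4 probe sets.

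Regulators of mitochondrial biogenesis had a median of 0.07 over 18 measured of 20, with 10 above 0. Past 1.2-fold were 4 upward and 2 downward, against 20.5% and 19.4% of all measured genes. Tfb1m, a methyltransferase of mitochondrial ribosomal RNA, was 1.49-fold higher, Pprc1, a coactivator of the PGC family, 1.35-fold higher, and Mterf1a, a mitochondrial transcription termination factor, 1.57-fold lower. Nrf1 was 1.27-fold higher, with 280 units under CSF1 and 221 units in control and an SD of 0.31 between 2 probe sets. Tfam, which packages mitochondrial DNA, had 889 units with CSF1 and 977 units in control, 1.10-fold lower. Esrra and the coactivator Ppargc1b had log2 ratios of 0.11 and -0.01. Ppargc1a was not above background on either array.

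Enzymes of the citric acid cycle and pyruvate dehydrogenase were the most even of these further lists, with a median of 0.00 over 19 measured of 20, 9 above 0 and none past 1.2-fold. The largest differences were those of Sucla2 at 0.21, Idh2 at -0.18 and Dlst at 0.16. This list had a median signal of 2600 units. Among all genes of at least 2000 units, 12% passed 1.2-fold upward and 12.1% downward. Carriers and membrane proteins of mitochondria had a median of -0.02 over 20 measured of 21. Past 1.2-fold were 3 upward and 2 downward, against 20.5% and 19.4% of all measured genes. Slc25a13, an aspartate-glutamate carrier, was 1.52-fold higher, the fusion protein gene Mfn1 1.44-fold lower and Opa1, which fuses inner membranes, 1.25-fold lower. The adenine nucleotide carrier gene Slc25a5, which exchanges ADP and ATP for complex V, had 16691 units with CSF1 and 18653 units in control, and -0.16 is its log2 ratio, in the level range where most genes were below 0.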

How the data were processed

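The data are 2 Affymetrix Mouse Genome 430 2.0 arrays, 1 of CSF1-treated and 1 of control macrophages, grouped by the labels. The deposited intensity values are linear. Per the series' design text, the authors analysed them in GeneSpring 6.2. How probes were summarized is not stated there. Both arrays had a trimmed mean (2% at each end left out) of 500.0 units. The deposited values were moved to log2 without further scaling. Of 45101 probe sets, 34958 carry 1 gene symbol, 932 several and 9211 none, and genes were taken from the first kind. All 90 member symbols equal the RefSeq symbol of their Entrez ID. The background level was a 90th percentile, taken over 118 probe sets for 78 of 90 listed genes that other tissues express. The genes named are the members with the 12 highest and 12 lowest ratios, core subunits, paralogues, members above background on 1 array only, and 3 genes of each further list with some fixed additions. Cox15 and Slc25a5 were named after their values were seen. Members and lists were chosen with earlier results of these data known. Calls are folds of 1.2, 1.5 or 2, with no test. Scripts were tested on simulated data. The number of arrays limits the precision. Alternatives were 4 other scalings (loess span 0.3), 3 background rules, 2 probe set rules, another fold, complexes assigned by symbol and, chosen after seeing the data, genes of at least 2000 units alone. Python 3.11.15 was used with matplotlib 3.10.9 for figures, statsmodels 0.14.6 for loess, and scipy 1.17.1, pandas 2.3.3 and numpy 2.4.6 otherwise.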

Additional observations from a re-analysis of the deposited data

How the results depend on the processing

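The median of complex I ranged between 0.01 and 0.10 over the settings, that of complex II between -0.16 and 0.13, complex III between 0.02 and 0.20, complex IV between -0.05 and 0.06, and complex V between 0.01 and 0.10, so complexes II and IV changed sign in some. Under the mean of all probe sets, which takes in probe sets below background, the median of complex II moved to 0.13, 16 subunit genes were past 1.2-fold higher and 7 lower, and 2 were past 2-fold. With no background level, 5 were past 1.2-fold lower and 2 past 2-fold. With complexes assigned by symbol alone, which adds the 8 assembly factors, 4 were past 1.2-fold lower. At 1.5-fold, 0 subunit genes were higher and 0 lower, against 5.31% and 4.8% of all measured genes. Of the 2423 genes with a mean signal of at least 2000 units, the closer background, 40 were higher and 40 lower. The number of subunit genes below 0 ranged between 22 and 37 over all settings. On probe sets not marked as shared, with 53 subunit genes left, the log2 ratio of Ndufab1 was -0.0446, the log2 ratio of Oxa1l was -0.0854 and the log2 ratio of Nrf1 was -0.10. Under the mean of all probe sets Ndufaf4 turned to 0.16 and Slc25a12 to -0.75, and the log2 ratio of Ttc19 was -0.0850, while quantile normalization made another probe set of Uqcc1 the brightest and turned it to -0.35. Centring on the hybridisation spikes put the median of all measured genes at 0.29, and values under it are relative to that. Ndufs8, Ndufb3, Uqcr11 and Atp5j stayed past 1.2-fold in the same direction under all 10 alternatives that give a ratio for each gene. Most of these could not change the outcome. The 4 genes are far above background, and Ndufb3, Uqcr11 and Atp5j have 1 probe set each. For those genes only the 4 other scalings could move the ratio, and for Ndufs8 also the 2 probe set rules. Probe sets near background, such as those of Cox7c, give bounds only. No paired analysis was possible because there is 1 array per group, and for the same reason no array could be left out.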

Other observations

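Several complex I genes were read on bright probe sets that carry the symbols of more than 1 gene, and so stand outside the comparisons above. A probe set of Ndufa11, an accessory subunit of the membrane arm, and Ndufa11b had 4413 units with CSF1 and 3146 units in control, 1.40-fold higher. One of Ndufs6, a zinc-binding subunit of the matrix arm, and Ndufs6b had 4098 units with CSF1 and 3637 units in control, 1.13-fold higher. The 2 probe sets that Ndufb4 shares with Ndufb4b and Ndufb4c were at 6979 and 4599 units with CSF1 and at 6584 and 4594 units in control, so the dim single-symbol probe set of Ndufb4 does not stand for the signal of this group. Which of the genes gives the signal of such a probe set was not tested. A probe set of Ndufab1 shared with its pseudogene Ndufab1-ps had 2819 units with CSF1 and 2526 units in control, 1.12-fold higher.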
